A study of Mus musculus with 15 samples.

Results

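The transcripts examined here encode 5 proteins that hold chromatin at the inner face of the nuclear envelope: Tmpo (lamina-associated polypeptide 2, LAP2), Lbr (the lamin B receptor), Lemd2, Lemd3 (MAN1) and Banf1 (barrier-to-autointegration factor, BAF). They were measured on Affymetrix expression arrays of whole hearts from male mice of 10 weeks, 7 heterozygous for Lmna H222P and 8 control mice, with 1 array per mouse. Lmna encodes lamins A and C, the filament proteins on which several of these tethers rest, and H222P replaces 1 of their amino acids, a change found in people with a dystrophy that also affects the heart. Mice are numbered per genotype in the titles, the sources used here give no strain, litter or batch, and p-values therefore measure the spread between these samples. The members are all probe sets that the platform annotation ties to exactly 1 gene symbol among the 5, which gave 14 of 45101 probe sets: 6 for Tmpo, 3 each for Lemd3 and Banf1, and 1 each for Lbr and Lemd2. Probe sets were taken by annotation alone, while the 5 genes were chosen with earlier results of these data known.

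Peripheral heterochromatin is held at the nuclear envelope by 2 known systems, one built on LBR and the other on lamin A/C with its membrane partners. LBR spans the membrane, binds B-type lamins and the heterochromatin protein HP1, and is also a sterol reductase. LAP2, LEMD2 and LEMD3 share the LEM domain, a short fold that binds BAF, and BAF bridges DNA, so that LEM proteins and BAF together gather chromatin to the envelope when the nucleus reforms after mitosis. Splice forms of Tmpo differ in place: the beta form sits in the membrane, while the alpha form lacks the membrane span and binds A-type lamins inside the nucleus. LEMD3 also binds receptor-regulated SMAD proteins and dampens TGF-beta and BMP signals, and LEMD2 recruits the ESCRT-III machinery that seals the envelope.

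None of these transcripts differed between the genotypes beyond the test's threshold. Of the 14 probe sets, 13 exceeded the filter (a log2 signal of 4 on at least 7 of the 15 arrays), and 0 of the 13 passed the threshold of 0.05 in limma's test, adjusted by Benjamini-Hochberg over all 38870 tested probe sets, of which 0.252% passed. Their adjusted p-values ran between 0.171 and 0.997. The genotypes overlapped in the signal of all 13, while 0.468% of all tested probe sets had groups that did not overlap. At an unadjusted p under 0.05 there were 2 of 13, both of Tmpo and in opposite directions, which is a share of 15.4% beside 14.6% of all tested probe sets. The median log2 difference, heterozygous minus control, was 0.08 over the 13 and -0.11 over all tested probe sets. That general shift comes and goes with the scaling of the arrays: it was 0.10 once arrays were centred on their medians.

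**Figure D1:**
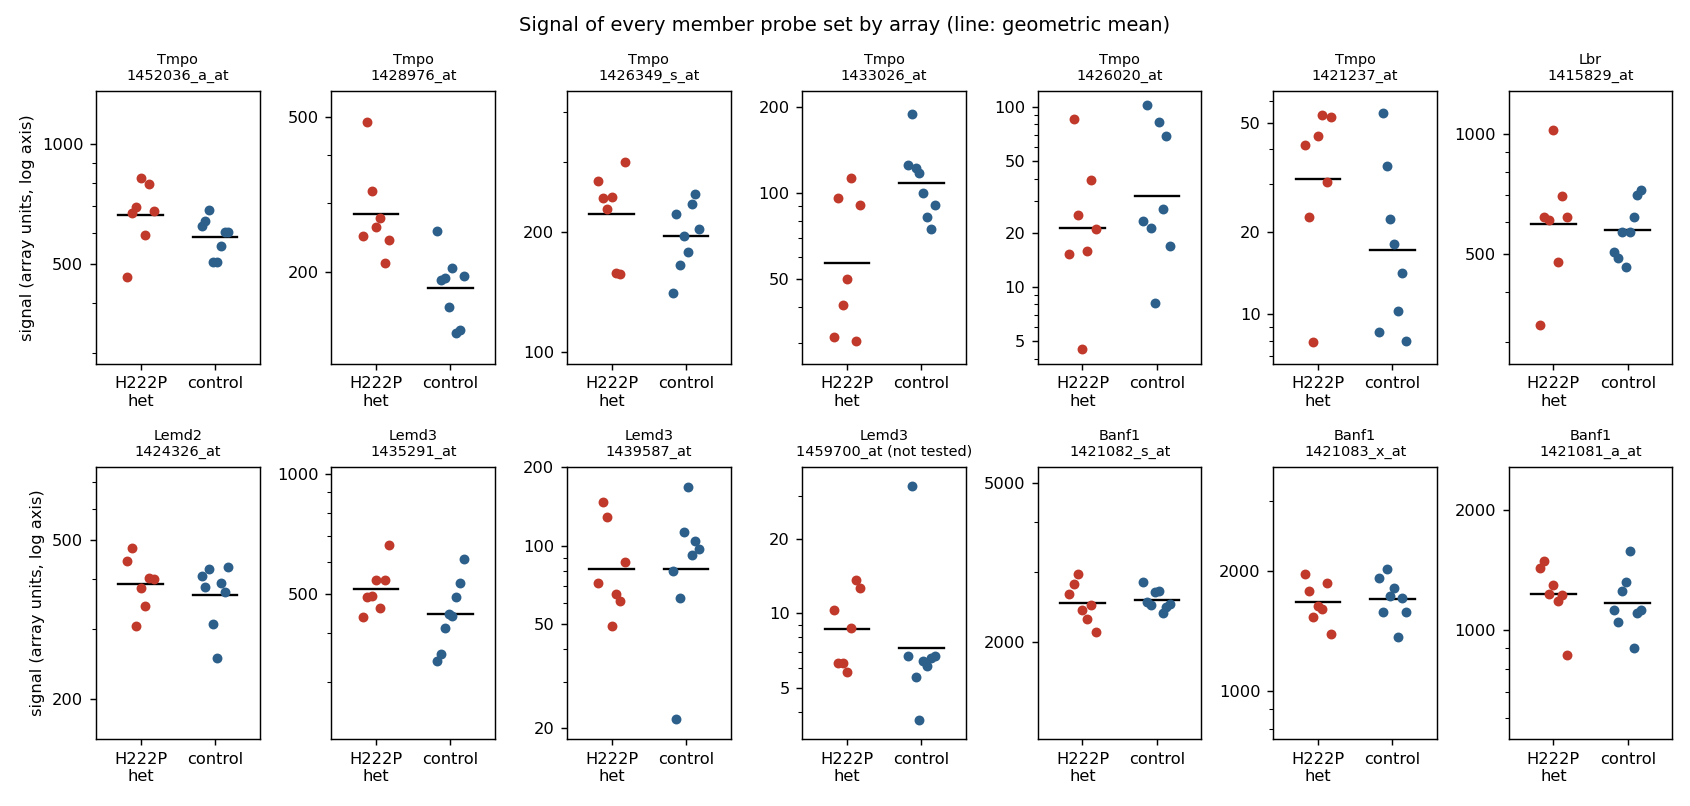
Signal in array units (log axis) of the 14 probe sets, 1 point per array, with the 7 heterozygous hearts left of the 8 controls, points in the order of the mouse numbers, and the geometric mean as a line. The genotypes overlap in every panel, and Tmpo 1428976_at and 1433026_at lean opposite ways.

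Markers of heart muscle were bright: the cardiac myosin Myh6 had geometric mean signals of 30672 units in heterozygous and 29291 units in control hearts. A bulk sample cannot tell fewer cells of a type from less RNA per cell. Array medians were 56.7 to 82.9 units in heterozygous and 68.5 to 94.2 units in control hearts. Summed signals of 7 atrial markers were 10599 to 41490 units in heterozygous and 5985 to 10750 units in control hearts, those of 7 fibroblast markers 18394 to 29994 units in heterozygous and 12941 to 17415 units in control hearts. Those of 5 tested erythroid and platelet markers were 1698 to 3366 units in heterozygous and 3429 to 4243 units in control hearts. Past the threshold, 3 of the 7 atrial markers rose, 0 of 7 fibroblast markers passed and 2 of 5 blood markers fell, beside 0.252% of all tested probe sets. Sln and Myl4 were among the atrial markers that rose, but another tested probe set of each lay at log2 differences of -0.94 and -0.07. Nppa, the brightest atrial marker, had 12713 units in heterozygous and 6947 units in control hearts and did not pass (limma's adjusted p = 0.251). The 9 tested proliferation genes, a set of interest because nuclear envelope genes are busy in dividing cells, had 0 passing members, a median log2 difference of -0.46 and 7 members below 0 against 2 above. Among them Mki67 stood at 0.522 of control (limma's adjusted p = 0.170). Their sums of 1970 to 3343 units in heterozygous and 1760 to 2593 units in control hearts were carried by Pcna, at 1537 units in heterozygous and 1209 units in control hearts. The part of these cell mixtures in the signals of the tethers was not tested.

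Lbr was measured by 1 probe set, 1415829_at. Its signal had a lowest value of 330.7, a median of 617.0 and a highest of 1024.3 units in heterozygous hearts, against 463.3, 565.45 and 720.8 units in control hearts. The control range lay inside the heterozygous one, whose ends were heterozygous mouse 1 (330.7) and mouse 4 (1024.3). Mean log2 signals were 9.21 ± 0.50 (SD, n = 7) in heterozygous and 9.16 ± 0.24 (SD, n = 8) in control hearts, a difference of 0.05 ± 0.21 (SE) with limma's adjusted p = 0.929. The 95% interval of the ratio ran between 0.766 and 1.41. The sign of so small a difference was not stable, since it became -0.077 without heterozygous mouse 4.

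Tmpo had 6 probe sets, and they disagreed. The suffixes of Affymetrix names say how a probe set was designed: "_a_at" is shared by several transcripts of a gene, "_s_at" and "_x_at" can match other transcripts too, and a plain "_at" is meant for 1 sequence. Which splice form of LAP2 a probe set reads is not given in the sources used here. The brightest, 1452036_a_at, had 465.1, 682.3 and 825.1 units (lowest, median, highest) in heterozygous hearts, against 506.3, 602.25 and 685.4 units in control hearts. Of the 7 heterozygous arrays 3 exceeded every control, while heterozygous mouse 1 lay below every control. The log2 difference was 0.18 ± 0.14 (SE; limma's adjusted p = 0.588).

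The next brightest, 1428976_at, had the smallest p among the members. Its signals were 211.3, 260.6 and 486.4 units in heterozygous hearts, against 139.5, 192.15 and 254.2 units in control hearts. All 7 heterozygous arrays lay above the control median and 7 of 8 controls lay below the lowest heterozygous array, the exception being control mouse 1 at 254.2 units. Mean log2 signals were 8.14 ± 0.39 (SD, n = 7) in heterozygous and 7.51 ± 0.29 (SD, n = 8) in control hearts, a ratio of 1.55 with a 95% interval of 1.17 to 2.05. With limma's unadjusted p = 0.00450 it ranked 1021 among the tested probe sets, and its adjusted p of 0.171 missed the threshold.

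Tmpo 1433026_at had lower signals in heterozygous hearts, at 30.5, 50.1 and 112.7 units, against 75.3, 108.7 and 189.5 units in control hearts. Of the heterozygous arrays 4 lay below every control, and 4 controls lay above every heterozygous array. Mean log2 signals were 5.83 ± 0.80 (SD, n = 7) in heterozygous and 6.76 ± 0.42 (SD, n = 8) in control hearts. The ratio of 0.523 had a 95% interval of 0.329 to 0.832 and limma's adjusted p = 0.209. These signals are near the array medians, and with all signals under a log2 of 6 set to 6 the log2 difference of -0.93 became -0.49.

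The other Tmpo probe sets gave wide or small differences. 1426349_s_at measured 156.7, 243.7 and 300.2 units in heterozygous and 141.0, 199.55 and 249.4 units in control hearts, a log2 difference of 0.19 ± 0.18 (SE). The 2 weak ones, 1421237_at and 1426020_at, had signals between 4.5 and 102.4 units over all arrays and exceeded the filter on 10 and 11 arrays. Their log2 differences were 0.86 ± 0.48 and -0.59 ± 0.63 (SE), with limma's adjusted p-values of 0.429 and 0.701. So 4 of the 6 Tmpo probe sets had a difference above 0 and 2 below 0, and the mean over the 6 differed by 0.06 (log2).

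The ratio of the 2 probe sets of a gene with the highest mean over all arrays was compared within each array, where it does not depend on how arrays were scaled. The log2 ratio of 1452036_a_at over 1428976_at was 1.24 ± 0.49 (SD, n = 7) in heterozygous and 1.69 ± 0.29 (SD, n = 8) in control hearts, lower than the control median on 6 of 7 heterozygous arrays. The difference of -0.45 had an exact two-sided permutation p of 0.0460, and p = 0.138 after Benjamini-Hochberg adjustment over the 3 genes with several tested probe sets (exact permutation). In Tmpo this pair owed its place partly to the heterozygous arrays, since on the control arrays alone 1426349_s_at was brighter than 1428976_at. With 1426349_s_at in its place, an alternative added after seeing the data, the difference was -0.0052 (exact permutation p = 0.979), so the ratio of -0.45 is a description of 1428976_at and no separate support for its difference. Without heterozygous mouse 6 the difference was -0.56 and the adjusted exact permutation p 0.0440, past the threshold, while leaving out any other single array did not bring it past. In Lemd3 and Banf1 the same kind of ratio differed by 0.21 and 0.01, with adjusted exact permutation p-values of 0.851 and 0.954.

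**Figure D2:**
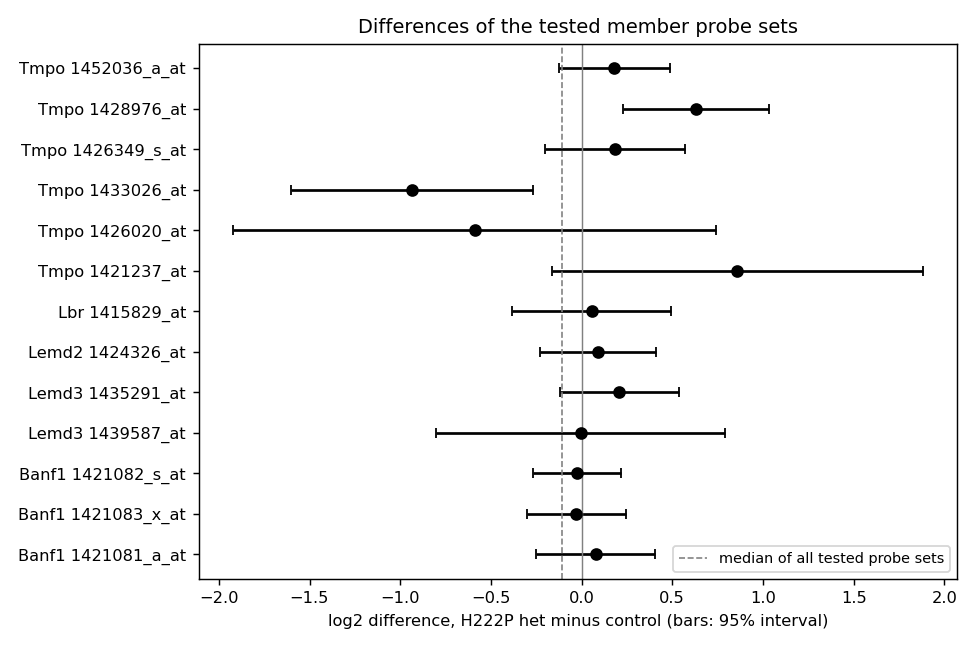
Log2 difference (heterozygous minus control) of the 13 tested probe sets, with limma's 95% intervals as bars, a solid line at 0 and a dashed line at the median of all tested probe sets. The intervals of Tmpo 1428976_at and 1433026_at leave out 0 before adjustment, and those of the other 11 include it.

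Lemd2, the LEM protein of the ESCRT-III step, has human variants known from an arrhythmic heart muscle disease with cataract. Its 1 probe set, 1424326_at, measured 305.1, 400.5 and 477.8 units in heterozygous hearts, against 253.6, 386.25 and 428.4 units in control hearts. The ranges overlapped almost fully, with 2 heterozygous arrays above every control and 1 control below every heterozygous array. The ratio was 1.06 with a 95% interval of 0.852 to 1.33 and limma's adjusted p = 0.819.

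Lemd3 was read by 3 probe sets. In 1435291_at the signals were 438.5, 494.5 and 664.9 units in heterozygous hearts, against 338.8, 443.05 and 613.1 units in control hearts. On 6 of 7 heterozygous arrays the signal exceeded the control median, and 3 controls lay below every heterozygous array. The ratio was 1.16 with a 95% interval of 0.922 to 1.45 and limma's adjusted p = 0.552. The dimmer 1439587_at had 49.0 to 147.9 units in heterozygous and 21.6 to 167.9 units in control hearts, with a log2 difference of -0.01 ± 0.37 (SE). The third, 1459700_at, exceeded the filter on 1 array only and was not tested: its signals were 5.8 to 13.7 units in heterozygous and 3.7 to 32.8 units in control hearts.

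Banf1 had the 2 member probe sets with the smallest spread within the genotypes, 1421082_s_at and 1421083_x_at, while that of 1421081_a_at was above those of Tmpo 1452036_a_at and Lemd2. Its brightest probe set, 1421082_s_at, had 2113.7, 2472.3 and 2962.6 units in heterozygous hearts, against 2362.9, 2498.75 and 2817.6 units in control hearts. Both ends of the heterozygous range lay outside the control range. The SD around the group means was 0.13 (log2), and 0.242% of all tested probe sets had a smaller one. This probe set was also brighter than 96.7% of all tested probe sets, and the part of brightness in its small spread was not tested. The ratio was 0.984 with a 95% interval of 0.831 to 1.16 and limma's adjusted p = 0.946. The ratios of 1421083_x_at and 1421081_a_at were 0.980 (95% interval 0.812 to 1.18) and 1.05 (0.842 to 1.32). The "_s_at" and "_x_at" sets can also take up transcripts of similar sequence, so their signal need not be Banf1 alone. Centring on array medians, which adds the same amount to the difference of every probe set, gave 0.18 for both 1421082_s_at and 1421083_x_at.

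At the largest unadjusted p that passed, the difference a probe set needed follows from its error. It was 0.59 (log2) or 1.50-fold for Banf1 1421082_s_at, 0.73 for Tmpo 1452036_a_at, 0.77 for Lemd2, 0.79 for Lemd3 1435291_at and 1.06 or 2.08-fold for Lbr. The median over all tested probe sets was 1.67. The weak Tmpo probe sets 1421237_at and 1426020_at would have needed 2.46 and 3.20. These values apply to the observed difference and are not limits on the true changes of these transcripts. With 7 against 8 arrays, a true change of such a size could still miss the threshold.

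Because lamin A/C and LBR are alternative anchors of heterochromatin, the signal of each tether was also set against that of Lmna on the same array. Lmna had 529.4 to 1063.1 units in heterozygous and 367 to 878.6 units in control hearts (1421654_a_at), with a log2 difference of 0.43 ± 0.20 (SE) and limma's adjusted p = 0.349. The log2 ratio of Lbr to Lmna was -0.38 ± 0.65 (SD, n = 7) in heterozygous and -0.01 ± 0.53 (SD, n = 8) in control hearts. Its difference of -0.37 had an adjusted exact permutation p of 0.370, and 6 of 7 heterozygous arrays lay below the control median. For Banf1 the ratio was 1.70 ± 0.25 (SD, n = 7) in heterozygous and 2.15 ± 0.41 (SD, n = 8) in control hearts, a difference of -0.45 with an exact permutation p of 0.0280 and 0.140 after adjustment over the 5 members. Lemd2, Tmpo and Lemd3 differed by -0.34, -0.25 and -0.22, each with an adjusted exact permutation p of 0.370. For Lemd2 all 7 heterozygous arrays lay below the control median, though the genotypes overlapped in all 5 ratios. Single arrays moved these values by over 1.5 times: without heterozygous mouse 1 the differences were -0.15 for Lbr, -0.082 for Tmpo and -0.10 for Lemd3, and without control mouse 7 they were -0.24 for Lbr, -0.15 for Tmpo and -0.088 for Lemd3. For Banf1 they ran between -0.53 and -0.37 and for Lemd2 between -0.50 and -0.24 without single arrays. All 5 ratios share the Lmna signal as denominator, so their common sign is not 5 separate observations. The lowest log2 difference among the tested Lmna probe sets was -0.65, and a ratio shows unequal change only.

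**Figure D3:**
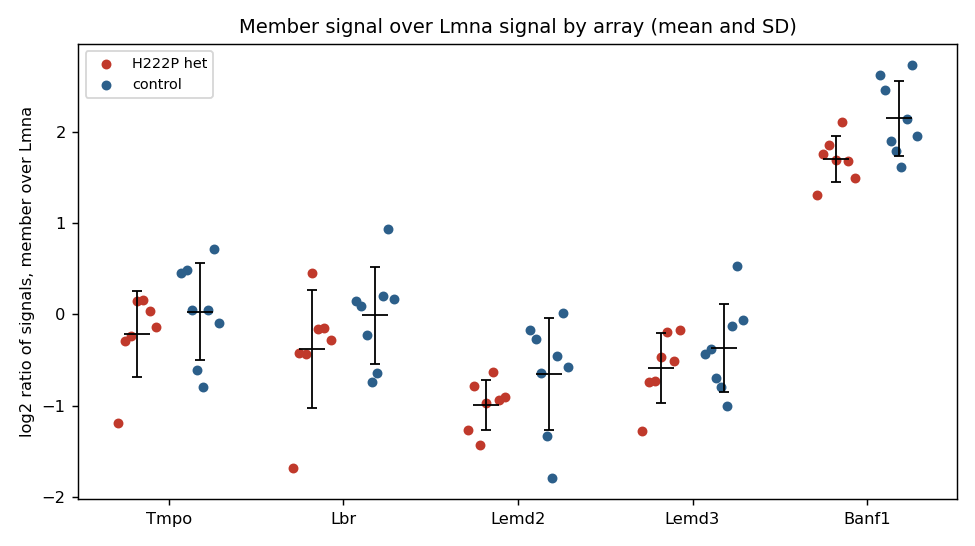
Log2 ratio of each tether's brightest probe set to that of Lmna on the same array, 1 point per array, heterozygous left of control, with mean and SD. Heights of different genes are not comparable; within each gene the genotypes overlap, and heterozygous mouse 1 is the lowest heterozygous point for Tmpo, Lbr, Lemd3 and Banf1.

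How far the tethers varied together across arrays depended on the scaling of the arrays. Over 29 pairs of tested probe sets, 19 within a gene and 10 between the brightest sets of different genes, correlations over 15 arrays were computed with permutation tests and adjusted together. None passed by Pearson's r, and 1 passed by Spearman's rho. That pair was Lbr and Lemd3 1435291_at, with r = 0.57 (permutation p = 0.0273, adjusted 0.198) and rho = 0.78 (permutation p = 0.00115, adjusted 0.0333). Without the 2 arrays farthest in Lbr, heterozygous mice 1 and 4, r was 0.72. Within heterozygous hearts r was 0.57 (exact permutation p = 0.175, n = 7) and within control hearts 0.83 (exact permutation p = 0.0117, n = 8).

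Lbr and Tmpo 1452036_a_at had r = 0.73 (permutation p = 0.00224, adjusted 0.0580) and rho = 0.54 (permutation p = 0.0421, adjusted 0.360). This relation rested on heterozygous mice 1 and 4, without which r was 0.40. It was 0.96 within heterozygous hearts (exact permutation p = 0.000992, n = 7) and 0.13 within control hearts (exact permutation p = 0.747, n = 8), and a difference between the genotypes in this correlation was not tested. Over all 15 arrays the 15 pairs of Tmpo probe sets had r between -0.25 and 0.33. The 3 pairs of Banf1 probe sets had r of 0.46, 0.61 and 0.70. Other pairs also had unlike values within the genotypes. Tmpo 1452036_a_at with Lemd2 had r = 0.82 within control and -0.22 within heterozygous hearts. Tmpo 1428976_at with 1426349_s_at had r = -0.86 within control and 0.20 within heterozygous hearts. The p-values within genotypes were not adjusted. After centring of the arrays on their medians, an alternative added after seeing the data, r was 0.76 for Lbr with Lemd3 and 0.85 for Lbr with Tmpo. All 10 pairs between genes then had r of 0.46 to 0.85, against -0.49 to 0.73 with the deposited scaling, and the 4 pairs with Banf1 moved to 0.46 to 0.56, against -0.49 to -0.16. That step adds the same value to every probe set of an array.

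**Figure D4:**
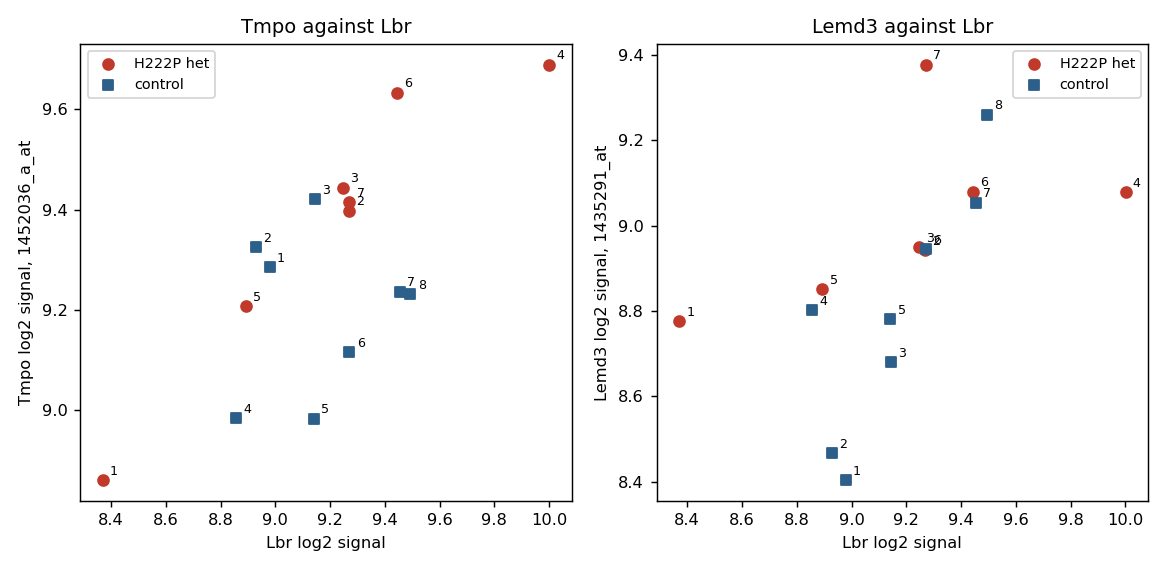
Log2 signals of Tmpo 1452036_a_at and Lemd3 1435291_at against that of Lbr, 1 point per array, labelled with the mouse number. Heterozygous mice 1 and 4 are the ends of the Lbr axis, and the Lemd3 signal of the controls climbs with Lbr.

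The 250 bases before the annotated start of these 3 genes are shown because the pairs of Lbr with Lemd3 and with Tmpo had the highest correlations between genes. They come from RefSeq, build GRCm38.p6, run 5′ to 3′ on the gene's strand, here minus for all, and lie at chr1:181842402-181842651 (Lbr), chr10:91171620-91171869 (Tmpo, the upstream of its 2 listed starts) and chr10:120979331-120979580 (Lemd3). Capitals mark CCAAT or its reverse complement ATTGG, the letters bound by the factor NF-Y.
Lbr: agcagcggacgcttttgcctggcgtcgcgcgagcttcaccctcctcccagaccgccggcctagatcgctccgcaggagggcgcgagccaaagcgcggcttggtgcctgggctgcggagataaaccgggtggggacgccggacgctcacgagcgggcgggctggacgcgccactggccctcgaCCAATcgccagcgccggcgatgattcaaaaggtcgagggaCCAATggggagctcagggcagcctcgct
Tmpo: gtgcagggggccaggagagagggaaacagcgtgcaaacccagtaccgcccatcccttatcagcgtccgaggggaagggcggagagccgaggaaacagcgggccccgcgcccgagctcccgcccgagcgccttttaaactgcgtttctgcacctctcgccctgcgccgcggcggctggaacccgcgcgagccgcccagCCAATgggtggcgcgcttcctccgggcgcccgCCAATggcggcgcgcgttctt
Lemd3: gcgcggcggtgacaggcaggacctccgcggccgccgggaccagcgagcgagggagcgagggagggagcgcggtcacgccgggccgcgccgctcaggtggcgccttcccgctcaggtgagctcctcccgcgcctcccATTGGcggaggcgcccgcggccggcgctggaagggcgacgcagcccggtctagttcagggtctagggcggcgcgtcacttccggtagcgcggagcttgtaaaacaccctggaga
Lbr and Tmpo each hold the motif at 2 places, beginning 68 and 28 bases before the start in Lbr and 53 and 21 bases before it in Tmpo, and Lemd3 holds it once, 114 bases before. On both strands, 33.8% of 32851 windows of this length hold CCAAT at least once and 10.1% at least 2 times. GGGCGG, the GC box, or its complement occurs 1 time in Lbr, 4 times in Tmpo and 1 time in Lemd3. Of all windows 32.7% hold it, and 4.09% hold it at least 4 times. TATAAA occurs in none of the 3 (12.4% of windows hold it). The windows contain 69.6%, 70.8% and 74.4% G and C, against a median of 52.4%. The window of the other listed start of Tmpo (chr10:91170551-91170800) holds 0 matches to any of the 3 motifs and has 46% G and C. With the deposited scaling Banf1 had r of -0.49 to -0.16 with these 3 genes. Its windows at chr19:5366877-5367126 and chr19:5366364-5366613 hold CCAAT 1 and 0 times and GGGCGG 1 and 3 times. They have 62.8% and 77.2% G and C. After centring on array medians the r of Banf1 with these 3 genes was 0.46 to 0.56, so its contrast with them depended on the scaling. No window was listed for Lemd2. A link between the motifs and the correlations was not tested. The motif matches are descriptions of sequence, and no measurement of binding is part of these data.

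The 2 genes nearest to each tether were listed by a fixed measure, the root mean square distance between standardised profiles (0 for identical profiles). It was taken over the 15 arrays with the deposited scaling. None of the listed genes was another tether. With 30756 probe sets to choose from, that outcome was nearly fixed and says nothing about how alike the tethers are. Nearest to Tmpo were Usp32 (distance 0.482) and Gnb1 (0.516), a ubiquitin protease and a G protein subunit, and nearest to Lbr were Bmi1 (0.476), a Polycomb repressor subunit, and Chordc1 (0.487), a chaperone partner. Lemd2 had Agpat4 (0.476) and Cp (0.513), Lemd3 had H2-D1 (0.583) and Tcf12 (0.590), and Banf1 had 4930447M23Rik (0.474) and Mknk1 (0.550). The last 2 were weak, with geometric means of 18.8 and 39.1 units in heterozygous and 25.7 and 52.9 units in control hearts. All of these lay under the lowest array median of 56.7 units. Agpat4 encodes an acyltransferase, Cp ceruloplasmin, H2-D1 a class I histocompatibility protein, Tcf12 a helix-loop-helix factor and Mknk1 a kinase downstream of ERK. None of these 10 passed limma's test. Between tethers, Lbr ranked 75 by closeness to Tmpo and Lemd3 ranked 909 by closeness to Lbr, among the 30756 tested probe sets of 1 gene symbol. In the other direction Tmpo ranked 147 by closeness to Lbr, and Lbr ranked 580 by closeness to Lemd3. The ranks of all remaining pairs, among them every pair with Lemd2 or Banf1, ran between 4408 and 29752.

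Genes that work with the tethers gave 0 passing members in all 7 lists, 0 of 58 genes by the probe set that stood for each (0.252% of all tested probe sets passed). At limma's unadjusted p under 0.05 there were 6 of the 58, or 10.3%, beside 14.6% of all tested probe sets. Of 9 tested LEM-domain and inner nuclear membrane genes, 4 lay above 0 and 5 below, with a median of -0.14. The membrane protein Sun2, which links lamins to the cytoskeleton, had 2113 units in heterozygous and 2422 units in control hearts, with limma's adjusted p = 0.453. Nurim (Nrm) had 58.8 units in heterozygous and 91.0 units in control hearts, with limma's adjusted p = 0.513. Emerin (Emd), the LEM protein whose loss causes human Emery-Dreifuss dystrophy, had 543 units in heterozygous and 638 units in control hearts (limma's adjusted p = 0.608). Among the lamins, Lmnb1, the B-type partner of LBR, had 224 units in heterozygous and 252 units in control hearts (limma's adjusted p = 0.709), while its other tested probe set lay at a log2 difference of 0.51. Lmnb2 was weak, at 10.5 units in heterozygous and 18.4 units in control hearts.

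Of 11 tested heterochromatin and repressor partners, 7 lay above 0 and 4 below, with a median of 0.17. The histone methyltransferase Ehmt1 had 851 units in heterozygous and 648 units in control hearts, with limma's adjusted p = 0.307 (ratio 1.31). Cbx3, which encodes the HP1 protein gamma, had 45.8 units in heterozygous and 82.3 units in control hearts, also at an adjusted p of 0.307 in limma's test (ratio 0.557). The 6 genes of the BAF kinases and phosphatase PP2A had a median of -0.03, and the catalytic subunits Ppp2ca and Ppp2cb had ratios of 1.09 and 0.935. The 6 SMAD genes, among them those LEMD3 binds, had a median of -0.02. Smad4, the shared partner, stood at 1.19 of control (limma's adjusted p = 0.355) and Smad5, of the BMP branch, at 1.15 (0.610), with another tested probe set of Smad5 at a log2 difference of -0.58.

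The 10 ESCRT-III genes of envelope sealing had a median of 0.03, with the filament subunit Chmp3 at 345 units in heterozygous and 262 units in control hearts (ratio 1.32, limma's adjusted p = 0.214) and the microtubule-severing enzyme Spast at 762 units in heterozygous and 628 units in control hearts (ratio 1.21, limma's adjusted p = 0.466). Another tested probe set of Chmp3 lay at a log2 difference of -1.02, and that of Spast at -0.06. The cholesterol synthesis genes, the pathway in which LBR acts as sterol reductase, had 13 tested members, 6 above 0 and 7 below, with a median of -0.02. Hsd17b7 had 149.8 units in heterozygous and 297.8 units in control hearts (ratio 0.503, limma's adjusted p = 0.166), while other probe sets of it reached up to a log2 difference of 0.39. Idi1 stood at 1.45 of control (limma's adjusted p = 0.250), while its other tested probe set lay at a log2 difference of 0.005.

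**Figure D5:**
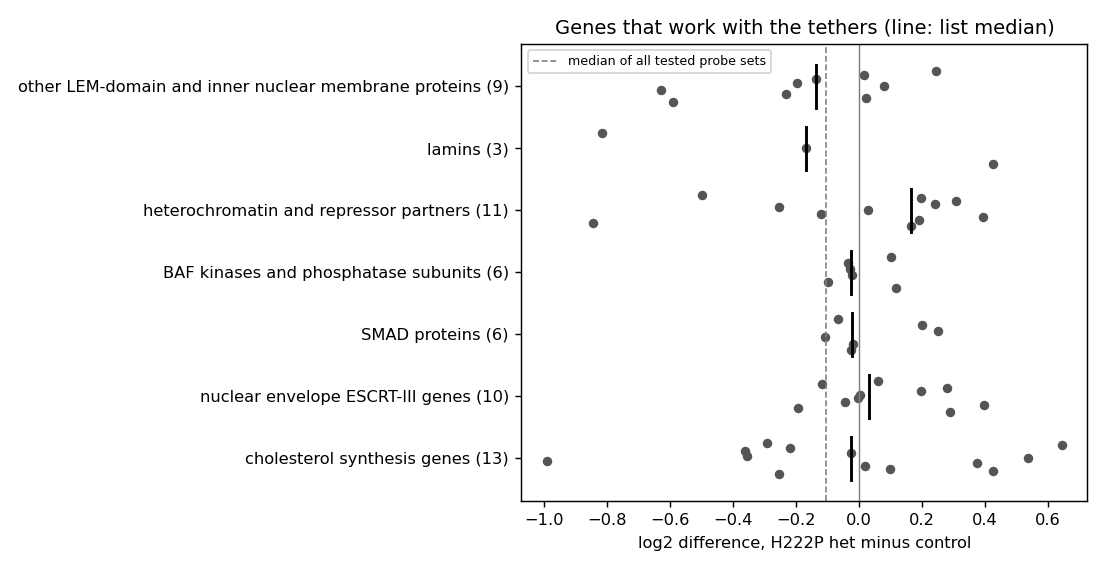
Log2 difference (heterozygous minus control) of the genes that work with the tethers, 1 point per gene by its brightest tested probe set, with the number of genes after each list name, a black line at the list's median and a dashed line at the median of all tested probe sets. Points of every list fall on both sides of 0, and none passed the test.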

How the data were processed

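RNA of whole hearts was extracted with a QIAGEN RNeasy kit and labelled with biotin, per the labels' protocols. Deposited were intensities, with 1 signal for each probe set on each array. The submitters' processing notes name GCRMA, but the values are linear with 1 decimal and have the same mean of 250.0 on every array after trimming 2% at each end, so how they were summarised is not settled here. Signals were log2-transformed with no pseudocount. Probe sets with a log2 signal above 4 on at least 7 of 15 arrays were tested, 38870 in all, without Affymetrix controls. The genotype test was limma (version 3.58.1, R 4.3.3; lmFit, eBayes, two-sided, threshold 0.05 after Benjamini-Hochberg). Ratios within arrays were compared with exact permutation tests over all 6435 assignments of arrays, and correlations with 100000 resamples, in scipy 1.17.1 and numpy 2.4.6 under Python 3.11.15. Figures were drawn with matplotlib 3.10.9. For this comparison, simulated data built on the means and SDs of the 38870 probe sets were tested. Changes were added to 50 randomly drawn probe sets per size, with independent noise. Of these, limma called 0% at a log2 change of 0.5, 32% at 1, 62% at 2 and 94% at 4, with 2 false calls. The median SD over all tested probe sets was 0.65, against 0.13 for Banf1 1421082_s_at and 1.29 for Tmpo 1426020_at. These shares are therefore not the power for a given member.

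Gene names came from the platform annotation. A gene was represented by its brightest tested probe set. Named genes were the members, Lmna, the 2 genes of each partner list with the smallest p and the 2 nearest profiles of each member. Emd, Lmnb1, Myh6, Mki67, Pcna, Sln, Myl4 and Nppa were added after their values were seen. The members and lists were chosen with earlier results of these data known. Some genes of the lists were not analysed here, and Lemd1 was below the filter. Mice with the same number in both groups deviated together with correlations of -0.06 to 0.06 over probe sets, so the numbers do not pair them. No batch could be examined. Alternatives were other filters, a floor, 2 scalings, array weights, another prior, a block, 3 covariates, 2 other tests, medians, means over probe sets and leaving out each array.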

Additional observations from a re-analysis of the deposited data

Results flagged for a closer look

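Of 28 sets of values (14 probe sets in each genotype), 2 held an array far from the rest of its group, where chance gives about 1 in 20. For Banf1 1421081_a_at, heterozygous mouse 7 had 864.4 units and the next lowest heterozygous array 1182.2 units. The same mouse had the lowest heterozygous signal in the other Banf1 probe sets, at 2113.7 and 1386.8 units. For Lemd3 1459700_at, control mouse 2 had 32.8 units and the next highest control 6.7 units. That probe set was not tested, and the other probe sets of Lemd3 had 354.0 and 21.6 units in that mouse, below the control medians of 443.05 and 94.6 units.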

How the results depend on the processing

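The count of member probe sets past the threshold was 0 in the main setting and in all 28 alternatives. The smallest adjusted p of any member in any of them was 0.0746, for Tmpo 1428976_at after centring on array medians, and over the alternatives that probe set ranged up to 0.957 with the blood marker mean as covariate. The number of all probe sets called moved between 0 (both marker covariates and the rank sum test) and 312 (trended and robust prior). In the settings with 0 calls, unadjusted p-values under 0.05 numbered 3268 (atrial markers), 2922 (blood markers) and 4933 (rank sum). Since no probe set of the series passed there, the count of 0 among the members in those settings says nothing about the members. Some differences changed sign, among them that of Tmpo 1428976_at (0.63 in the main setting) and that of Tmpo 1426020_at (-0.59), and none of the changed values was past the threshold. With the blood marker mean as covariate the differences were -0.68 for Lbr, 0.37 for Banf1 1421083_x_at, 0.19 for Tmpo 1426020_at, -0.053 for Tmpo 1426349_s_at, -0.23 for Tmpo 1428976_at and -0.053 for Tmpo 1452036_a_at. With the atrial marker mean they were -0.26 for Lbr, 0.10 and 0.24 for Banf1 1421082_s_at and 1421083_x_at and 0.64 for Lemd3 1439587_at. These means differ between the genotypes, so such a fit cannot separate them. Centring on array medians gave 0.18 for each of Banf1 1421082_s_at and 1421083_x_at and 0.20 for Lemd3 1439587_at, and quantile normalization gave 0.25 for the last. The mouse number as a replicate block gave 0.030 for Lemd3 1439587_at and changed no call of a member, with a smallest adjusted p of 0.242; over all probe sets it left 1 call in place of 98, and 1 of 7 heterozygous mice correlated best with the control of its own number. The mean over Banf1 probe sets differed by 0.0080. Leaving out each array gave -0.077 to 0.20 for Lbr, -0.064 to 0.017 and -0.074 to 0.015 for Banf1 1421082_s_at and 1421083_x_at, and -0.28 to 0.14 for Lemd3 1439587_at. The within-array ratio of Banf1 probe sets became -0.028 with medians and ran between -0.056 and 0.035 without single arrays, and that of Tmpo between -0.56 and -0.32. The causes were not tested.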

Other observations

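A pair of Tmpo probe sets, singled out after their values were seen because they had the 2 smallest p-values of the members and opposite signs, separated the genotypes when set against each other. The ratio of 1428976_at to 1433026_at was 2.44 to 7.94 with a median of 5.20 on the 7 heterozygous arrays, against 1.01 to 2.14 with a median of 1.79 on the 8 control arrays, and the groups did not overlap. Among 24861 pairs of tested probe sets of the same gene, the groups did not overlap in 0.241%, and for the signals of single probe sets in 0.468%. Given how the pair was chosen, the values are a description with no test. Which Tmpo transcripts each of the pair reads was not analysed here, and 1433026_at is a weak signal.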
